A study of Homo sapiens with 8 samples.

Results

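The aminoacyl-tRNA synthetases are the enzymes that attach each amino acid to its own transfer RNA, the step that fixes the genetic code before the ribosome reads a message. The 40 genes described here are the protein-coding genes whose symbols name a cytosolic synthetase (20 genes), a mitochondrial synthetase (17 genes) or one of the scaffold proteins AIMP1, AIMP2 and EEF1E1 (3 genes), out of 60668 gene identifiers in the count tables. Membership follows from the symbol alone, although the gene family was picked for study with earlier results of these data known. All 40 of 40 passed the expression filter of more than 1 CPM (counts per 1000000 counts of the library) in at least 4 of the 8 libraries, which left 15222 genes to test.

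The libraries came from D283-OMO cells, a stable line made from the medulloblastoma line D283 Med by lentiviral transfer of a FLAG-tagged, doxycycline (DOX)-inducible OMOMYC gene and selection with hygromycin. OMOMYC is a small protein derived from MYC that blocks the action of MYC, the transcription factor behind much of the growth programme of this tumour type. The untreated group, OMO, held 4 libraries and the induced group, OMO+DOX, held 4 libraries of the same line after 72 h with 0.25 µg/mL DOX, so that both groups carried the transgene. The study calls them independent biological replicates. The comparison asks how the polyadenylated RNA of D283 Med cells changed when MYC activity was inhibited, and DOX itself and OMOMYC cannot be told apart in these libraries.

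Cells carry separate sets of these enzymes for the cytosol and for the mitochondrial matrix, both encoded in the nucleus. Most mitochondrial enzymes are marked by the number 2 in their symbol, while GARS1 and KARS1 each supply both compartments from a single gene. EPRS1 is a fusion of the glutamate and proline enzymes, phenylalanine needs the paired subunits FARSA and FARSB, and several cytosolic enzymes are held together with AIMP1, AIMP2 and EEF1E1 in the multisynthetase complex. Many cytosolic synthetase genes are known targets of ATF4, the transcription factor of the amino acid response, and MYC is known to act on genes of protein synthesis.

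Total counts per library ranged from 38390696 to 54020506, the lowest being replicate 2 of OMO+DOX. Pearson correlations of log2 CPM between libraries ran from 0.9893 to 0.9965 within OMO, from 0.9941 to 0.9968 within OMO+DOX and from 0.8644 to 0.8824 between the groups. MYC RNA itself stood at 939 ± 75.6 CPM in OMO and at 1123 ± 56.8 CPM in OMO+DOX (SD, n = 4 each; log2 fold change (log2FC) 0.26, adjusted p = 0.00237), and reads from the MYC-derived transgene cannot be told apart from it in counts per gene. Of 8 markers of medulloblastoma of this kind, 6 exceeded 1 CPM and EOMES and BARHL1 did not, and their summed level was between 1327 and 1390 CPM in OMO and between 602 and 611 CPM in OMO+DOX. OTX2 made up most of this sum, at 1049 CPM in OMO and 510 CPM in OMO+DOX. NRL, CRX, NEUROD1, OTX2 and SYP had log2FCs of −3.55, −2.59, −2.23, −1.04 and −0.18, and TUBB3 of 0.73. None of 4 immune and none of 4 glial markers exceeded 1 CPM in either group, with sums of at most 0.684 and 0.857 CPM and with MOG at 0 throughout. Of 5 fibroblast markers, COL1A1 and PDGFRA exceeded 1 CPM, with sums between 23.6 and 24.6 CPM in OMO and between 22.1 and 26.8 CPM in OMO+DOX. Of 3 endothelial markers, 1 exceeded 1 CPM in OMO and 2 did in OMO+DOX, with sums between 2.91 and 3.67 CPM and between 2.59 and 3.50 CPM, and within these sums CDH5 had a mean of 0 CPM in OMO and 1.85 CPM in OMO+DOX while VWF went from 3.26 to 1.24 CPM. The part of these marker changes in the synthetase values was not tested, and in bulk RNA a change in the mix of cells and a change of RNA per cell cannot be told apart.

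The synthetases fell more often than they rose. With OMOMYC induction, 28 of the 40 genes fell, 5 rose and 7 did not pass an adjusted p below 0.05 in edgeR (quasi-likelihood test, p-values adjusted by Benjamini-Hochberg across the whole table). The changes were small beside the rest of the transcriptome: 3 genes, WARS1, FARSA and WARS2, fell by at least 1.5-fold, and 1 gene, MARS2, rose by that much. Of all 15222 genes tested, 76.6% were called in these libraries. As shares of all genes tested, 38.1% were called lower and 38.5% higher with DOX, and 38.4% were called with a change of at least 1.5-fold. The called share of the synthetases was thus near that of all genes, whereas 70% of them were called lower and 12.5% higher. The median log2FC was −0.31 over the 40 genes and 0.01 over all genes tested. With library sizes left unscaled, which moved the median of all genes to 0.14, 25 of the 40 fell and 9 rose. At an adjusted p below 0.001 with a change over 4-fold, 0 of the 40 were called by edgeR and 0 by DESeq2, beside 7.12% of all genes (2.75% lower and 4.38% higher), while 33 had an unadjusted p below 0.05 by edgeR and 33 an adjusted p below 0.05 by DESeq2.

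**Figure D1:**
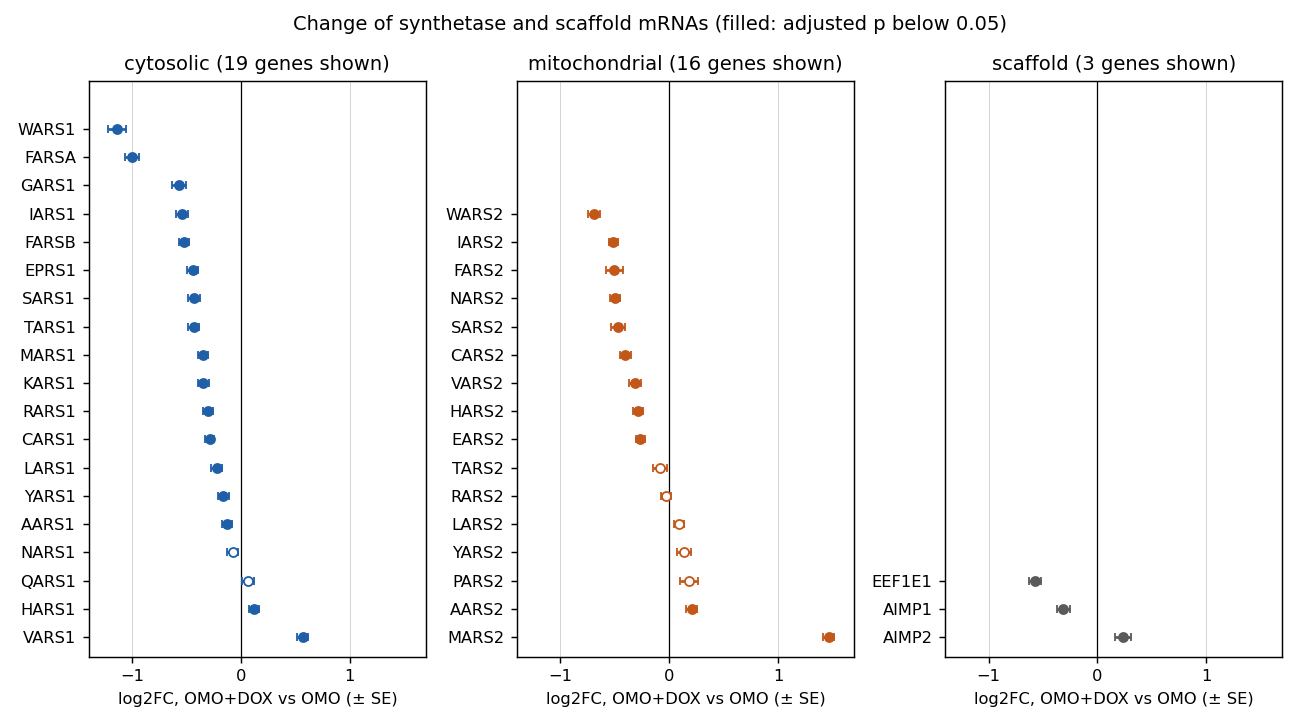
The log2FC of 38 of the 40 genes, OMO+DOX against OMO, is plotted with its standard error for 19 cytosolic, 16 mitochondrial and 3 scaffold genes, and filled points mark an adjusted p below 0.05. Most points lie between −0.57 and 0.24, with WARS1 at −1.14 and FARSA at −0.999 apart on the left and MARS2 at 1.46 apart on the right.

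In untreated cells most cytosolic enzymes were more abundant messages than the mitochondrial ones. Levels are given here as CPM per kilobase of exon, with exon lengths from GENCODE 29, so that genes of different length can be set side by side. The cytosolic genes had a median of 47.9 CPM per kilobase in OMO and the mitochondrial genes a median of 9.47 CPM per kilobase. The scaffold genes AIMP1, EEF1E1 and AIMP2 stood at 23.8, 17.2 and 7.51 CPM per kilobase.

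SARS1, the seryl-tRNA synthetase, was the most abundant of the 40 at 153.6 ± 7.01 CPM per kilobase (SD, n = 4), followed by EPRS1 at 101.9 ± 3.48. Next came IARS1, TARS1 and NARS1 at 78.9, 75.8 and 75.3 CPM per kilobase, and these neighbours did not differ beyond the range of their libraries. At the other end stood the mitochondrial enzymes for phenylalanine, valine and proline: FARS2 at 2.53 ± 0.224, VARS2 at 2.87 ± 0.0787 and PARS2 at 3.43 ± 0.178 CPM per kilobase. IARS2 was the most abundant mitochondrial enzyme at 35.5 ± 0.737 CPM per kilobase, above 8 cytosolic genes, while the cytosolic HARS1 at 8.54 and CARS1 at 7.55 lay below the mitochondrial median. The exon lengths used for HARS1 and CARS1 were 7853 and 10037 bases. In CPM not divided by length they stood at 67.1 and 75.7 in OMO, above HARS2 at 41.1 and CARS2 at 60.6. Of the 39 pairs of neighbours in this order, 23 overlapped in the range of their libraries. In OMO+DOX the cytosolic median was 36.3 and the mitochondrial median 8.30 CPM per kilobase.

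**Figure D2:**
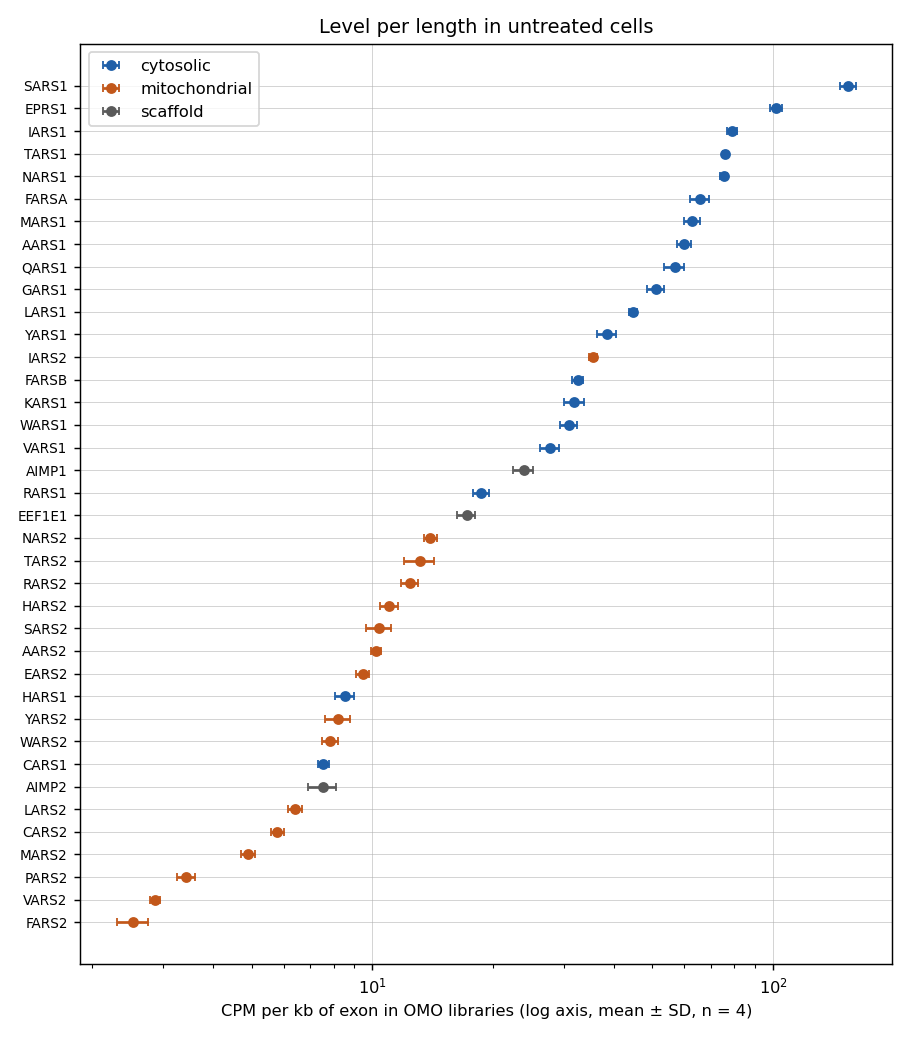
Of the 40 genes, 38 are plotted, each at its mean level in the 4 OMO libraries in CPM per kilobase of exon on a log axis, with bars for the SD, ordered from high to low. The cytosolic genes fill the upper part from SARS1 at 153.6 downward and the mitochondrial genes the lower part to FARS2 at 2.53. IARS2 is high and HARS1 and CARS1 are low for their class by this measure, which depends on the exon length used.

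Promoters of these genes were searched for the motifs of the MYC family and of ATF4, since both kinds of factor are known to act on synthetase genes. RefSeq promoters on GRCh38.p14, 250 bases before to 50 bases after the annotated start, were found for 33 of the 40 genes, 16 cytosolic, 14 mitochondrial and 3 scaffold. The E-box CACGTG, which MYC with its partner MAX binds, reads the same on both strands. In the 300 bases it was present in 1 of 16 cytosolic promoters (6.25%), in 3 of 14 mitochondrial promoters (21.4%) and in none of the 3 scaffold promoters. Of the promoters of all genes tested, 10.1% held it, and of all RefSeq promoters 7.43%. The 4 sites are shown because their genes cover falls and the rise of MARS2, with the E-box in capitals and 12 bases on either side, on the strand of the gene:

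IARS1: tggttcgttttcCACGTGgaggcgcaaaac
EARS2: cagggagaagccCACGTGtgctattccatc
CARS2: tgctgggatgcaCACGTGcttcgctaacag
MARS2: atgcgcctctcaCACGTGctgtcagaacgc

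These stretches lie at chr9:92293866-92293895 on the minus strand for IARS1, chr16:23557348-23557377 on the minus strand for EARS2, chr13:110706501-110706530 on the minus strand for CARS2 and chr2:197705346-197705375 on the plus strand for MARS2. The E-box began 186 bases before the RefSeq start of IARS1, 15 before that of EARS2 and 11 before that of MARS2, and in CARS2 it spanned the start. The RefSeq start lay within 500 bases of the outermost start of the gene in GENCODE 29 for 30 of the 33 genes. That limit is wider than the window searched. For KARS1 the RefSeq start lay 978 bases inside the gene, and for CARS2 it lay 7088 bases inside. Without CARS2's site the E-box was left in 2 of the 14 mitochondrial promoters. Of these genes IARS1, EARS2 and CARS2 fell and MARS2 rose, so the genes with an E-box did not move one way. VARS1 and AARS2, which also rose, were among the genes for which no promoter was found, and they were not searched. WARS1 and FARSA, the cytosolic genes that fell most, had no CACGTG in this window. Their outermost GENCODE 29 starts lay 478 and 326 bases before the RefSeq start, outside the window, and were not searched.

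The core of the element bound by ATF4 with its C/EBP partners was searched as TGATGNAA, where N is any base, on both strands. It was present in 6 of 16 cytosolic promoters (37.5%) and in 1 of 14 mitochondrial promoters (7.14%), beside 1.71% of the promoters of genes tested and 3.67% of all RefSeq promoters. This motif was chosen after the values had been seen, and in the 250 bases before the start alone it was present in 2 of 16 cytosolic promoters (12.5%), beside 1.44% of those of genes tested. The sites are shown since 6 of these 7 genes are cytosolic and share the core, with the core in capitals as it reads on the strand of the gene:

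AARS1: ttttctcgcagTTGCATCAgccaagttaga
CARS1: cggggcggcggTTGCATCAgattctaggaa
IARS1: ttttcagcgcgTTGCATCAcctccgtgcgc
MARS1: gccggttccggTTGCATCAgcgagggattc
TARS1: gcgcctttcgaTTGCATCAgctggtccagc
NARS1: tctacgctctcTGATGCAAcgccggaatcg
YARS2: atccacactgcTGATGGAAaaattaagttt

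On the minus strand these stretches lie at chr16:70289675-70289704 (AARS1), chr11:3057407-3057436 (CARS1), chr9:92293692-92293721 (IARS1), chr18:57621804-57621833 (NARS1) and chr12:32756076-32756105 (YARS2). On the plus strand they lie at chr12:57488053-57488082 (MARS1) and chr5:33440956-33440985 (TARS1). In all 6 cytosolic genes the core was TGATGCAA or its reverse complement, and in CARS1, IARS1, MARS1, NARS1 and TARS1 it lay within 22 bases of the start. The RefSeq start of MARS1 lies 12623 bases inside the gene as GENCODE 29 bounds it. Among the 6, AARS1, CARS1, IARS1, MARS1 and TARS1 fell and NARS1 had a log2FC of −0.077. Of all 20 cytosolic genes 16 (80%) fell, with a median log2FC of −0.33, beside 38.1% of all genes tested. These falls are thus not a result particular to the genes with the core. A match is a stretch of letters and not a bound site.

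Among the 20 cytosolic synthetases 16 fell, 2 rose and 2 did not pass the test, with a median log2FC of −0.33. In 16 of the 20 the libraries of the groups did not overlap, as in 71.7% of all genes tested. The falls were led by WARS1 and FARSA, at 0.454 and 0.500 of their untreated level, and the rises were those of VARS1 and HARS1. Without GARS1 and KARS1, which also serve mitochondria, 14 of 18 fell and 2 rose, with a median of −0.30.

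WARS1, the tryptophanyl-tRNA synthetase (ENSG00000140105.18, minus strand of chromosome 14, 100333788 to 100376805 of GRCh38), stood at 209, 185, 194 and 198 CPM in OMO replicates 1 to 4. In OMO+DOX replicates 1 to 4 it stood at 79.5, 103, 79.2 and 95.2 CPM. All OMO+DOX libraries lay far below all OMO libraries, a 2.20-fold fall with a log2FC of −1.14 ± 0.084 (SE; adjusted p = 1.65e-07). WARS1 is also known as a gene induced by interferon.

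FARSA, the catalytic subunit of the phenylalanyl-tRNA synthetase (ENSG00000179115.11, minus strand of chromosome 19, 12922479 to 12934037), read 152, 161, 172 and 155 CPM in OMO and 81.1, 71.1, 81.1 and 86.5 CPM in OMO+DOX. The groups lay well apart, with a log2FC of −0.999 ± 0.065 (adjusted p = 5.14e-08). FARSB, the other subunit of the same enzyme, read 107, 107, 115 and 109 CPM in OMO and 75.1, 80.5, 73.3 and 76.7 CPM in OMO+DOX. Its groups did not overlap either, and its log2FC of −0.52 ± 0.046 (adjusted p = 8.32e-07) was closer to 0 than that of FARSA. A difference between the subunits was not tested.

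GARS1, the glycyl-tRNA synthetase of both compartments, read 204, 205, 227 and 209 CPM in OMO and 134, 157, 131 and 147 CPM in OMO+DOX. Replicate 2 was the highest of the OMO+DOX libraries and still below all OMO libraries (log2FC −0.57 ± 0.063, adjusted p = 5.55e-06). IARS1, the isoleucyl enzyme of the multisynthetase complex, read 596, 586, 560 and 593 CPM in OMO and 379, 442, 382 and 402 CPM in OMO+DOX. Replicate 2 was again the highest of the OMO+DOX libraries, and the groups did not overlap (log2FC −0.54 ± 0.055, adjusted p = 2.67e-06).

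The other 11 cytosolic genes that fell had log2FCs from −0.44 for EPRS1 to −0.13 for AARS1. Between them, in order, lay among others SARS1, TARS1, MARS1, KARS1, RARS1, CARS1, LARS1 and YARS1. AARS1, the alanyl-tRNA synthetase, was the only gene of the 11 whose groups overlapped, with 254 to 280 CPM in OMO and 237 to 254 CPM in OMO+DOX (adjusted p = 0.0243). It did not pass the test without replicate 2 of OMO, replicate 1 of OMO+DOX or replicate 3 of OMO+DOX, with adjusted p of 0.0552, 0.0641 and 0.0820.

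VARS1, the valyl-tRNA synthetase (ENSG00000204394.13, minus strand of chromosome 6, 31777518 to 31795953), moved the other way. It read 164, 161, 181 and 167 CPM in OMO and 249, 235, 257 and 257 CPM in OMO+DOX. All OMO+DOX libraries were above all OMO libraries, by a log2FC of 0.57 ± 0.051 (adjusted p = 1.01e-06). HARS1, the histidyl-tRNA synthetase, read 65.4, 63.7, 72.0 and 67.1 CPM in OMO and 71.3, 72.0, 74.2 and 73.9 CPM in OMO+DOX. Its groups overlapped in replicate 3 of OMO, and its rise of 0.12 ± 0.048 (adjusted p = 0.0388) was lost in 6 of 8 fits that left out a library, all but those without replicate 3 of OMO or replicate 2 of OMO+DOX. In those 6 the adjusted p lay between 0.0548 and 0.162.

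Neither NARS1 nor QARS1, the asparaginyl and glutaminyl enzymes, passed the test. NARS1 read 314, 311, 299 and 308 CPM in OMO and 280, 318, 283 and 287 CPM in OMO+DOX. Replicate 2 of OMO+DOX was the highest of all 8 libraries and the other OMO+DOX libraries were the lowest (log2FC −0.077 ± 0.050, adjusted p = 0.177), and without it NARS1 was called lower at −0.12 (adjusted p = 0.0213). QARS1 read 250, 262, 287 and 269 CPM in OMO and 271, 263, 294 and 287 CPM in OMO+DOX, with overlapping ranges (log2FC 0.061 ± 0.055, adjusted p = 0.329).

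**Figure D3:**
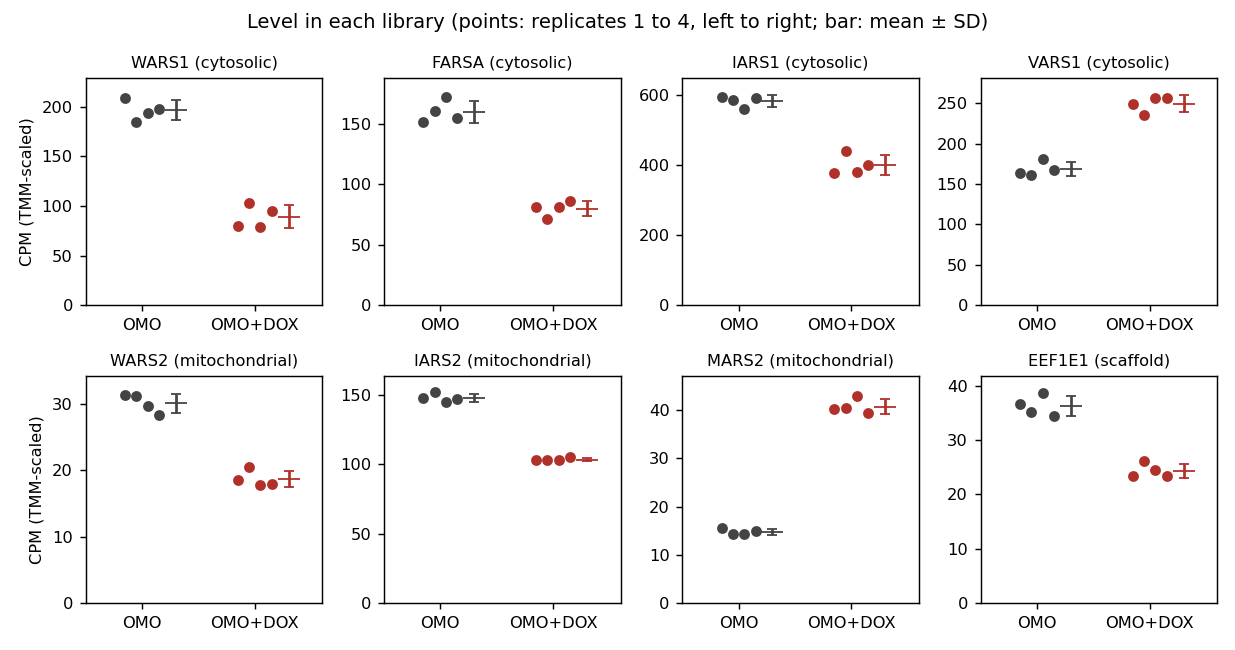
Each point is the CPM of 1 library for 8 of the genes, with bars for the mean and SD of 4 libraries and axes that start at 0. WARS1, FARSA, IARS1, WARS2, IARS2 and EEF1E1 lie lower in all OMO+DOX libraries, and VARS1 and MARS2 lie higher.

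Membership in the multisynthetase complex was also set beside these values, a grouping made after they had been seen. Of the 8 cytosolic enzymes of the complex, such as EPRS1, IARS1, LARS1 and MARS1, 7 fell and 0 rose, with a median log2FC of −0.33. Of the 12 outside it 9 fell and 2 rose, with a median of −0.36. Lower calls were thus 87.5% and 75% of these groups, beside 80% of all 20 cytosolic genes and 38.1% of all genes tested. Higher calls were 0% and 16.7%, beside 10% and 38.5%. By the structural class of the catalytic domain, 8 of 10 class I genes fell and 1 rose (median −0.30), and 8 of 10 class II genes fell and 1 rose (median −0.39). These are the same 80% lower and 10% higher as in the whole cytosolic class. EPRS1, the fusion of the glutamate and proline enzymes, has a domain of each class and was counted in class I only.

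Replicate 2 of OMO+DOX was the highest of its group for 11 of the 16 cytosolic genes that fell and the lowest for 2. It was also the library of lowest depth, and the part of depth in this was not tested. Without it the number of cytosolic genes down by at least 1.5-fold was 4 rather than 2, with GARS1 at −0.62 and IARS1 at −0.59 added. GARS1 also passed that size in the fits without replicates 1, 2 or 4 of OMO or replicate 4 of OMO+DOX, at −0.60, −0.59, −0.59 and −0.59. Without replicate 2 of OMO+DOX, VARS1 at 0.59 passed that size as well, as it did at 0.60 without replicate 3 of OMO. EEF1E1 passed it without replicate 2 of OMO+DOX, replicate 2 of OMO or replicate 4 of OMO, at −0.61, −0.60 and −0.61. In the fit of all 8 libraries GARS1 at −0.57, EEF1E1 at −0.57 and VARS1 at 0.57 lay just short of that limit, which is 0.585 on the log2 scale.

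Of the 17 mitochondrial synthetases, 10 fell (58.8%), 2 rose (11.8%) and 5 did not pass the test, with a median log2FC of −0.29, and the groups did not overlap in 12 of 17, beside 71.7% of all genes tested. WARS2 fell most and MARS2 rose by more than any other synthetase moved in either direction. The mean log2FC of the class was −0.14 with MARS2 and −0.24 over the 16 genes without it.

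MARS2, the methionyl-tRNA synthetase of mitochondria (ENSG00000247626.5, plus strand of chromosome 2, 197705369 to 197708387), read 15.6, 14.4, 14.3 and 14.9 CPM in OMO. In OMO+DOX it read 40.3, 40.4, 43.0 and 39.4 CPM. The groups lay far apart with little spread inside each, a 2.76-fold rise with a log2FC of 1.46 ± 0.050 (adjusted p = 1.95e-10). Per kilobase, MARS2 went from 4.90 to 13.5 CPM. Its counts were whole numbers in all 8 libraries and no other gene of GENCODE 29 overlapped its exon.

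AARS2, the mitochondrial alanyl-tRNA synthetase, read 42.6, 43.1, 45.3 and 44.4 CPM in OMO and 51.8, 46.3, 52.4 and 52.1 CPM in OMO+DOX. All OMO+DOX libraries were above OMO, with replicate 2 closest to it (log2FC 0.21 ± 0.051, adjusted p = 0.00282).

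WARS2, the mitochondrial counterpart of WARS1, read 31.4, 31.2, 29.7 and 28.3 CPM in OMO and 18.5, 20.5, 17.8 and 18.0 CPM in OMO+DOX. The groups did not overlap (log2FC −0.69 ± 0.058, adjusted p = 4.87e-07). Tryptophan was thus the amino acid whose enzyme fell most in both compartments.

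IARS2, for isoleucine, read 148, 152, 145 and 147 CPM in OMO and 103, 103, 103 and 105 CPM in OMO+DOX. The OMO+DOX libraries were almost equal and far below OMO (log2FC −0.51 ± 0.039, adjusted p = 2.08e-07). FARS2, for phenylalanine, read 11.1, 12.8, 13.5 and 11.7 CPM in OMO and 8.54, 8.55, 8.19 and 9.27 CPM in OMO+DOX. It was the least abundant per kilobase, yet its groups did not overlap (log2FC −0.50 ± 0.076, adjusted p = 7.76e-05).

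NARS2, for asparagine, read 41.7, 45.2, 44.9 and 44.2 CPM in OMO and 32, 31.9, 30.1 and 30.2 CPM in OMO+DOX, with no overlap (log2FC −0.50 ± 0.046, adjusted p = 1.17e-06). SARS2, for serine, read 30.5, 33.9, 36.5 and 33.2 CPM in OMO and 25.0, 21.9, 24.7 and 25.1 CPM in OMO+DOX. Its groups did not overlap (log2FC −0.47 ± 0.065, adjusted p = 3.85e-05), and it shares 1492 exonic bases on the same strand with the gene model AC011455.2. Among the other genes that fell, CARS2, VARS2, HARS2 and EARS2 had log2FCs from −0.40 to −0.27.

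TARS2, RARS2, LARS2, YARS2 and PARS2 did not pass the test. TARS2, for threonine, read 48.1, 54.2, 59.4 and 52.2 CPM in OMO and 49.7, 48.4, 51.2 and 52.5 CPM in OMO+DOX, overlapping ranges with a log2FC of −0.084 ± 0.063 (adjusted p = 0.237). RARS2, for arginine, read 31.9, 31.0, 33.6 and 29.9 CPM in OMO and 30.3, 31.5, 30.6 and 31.7 CPM in OMO+DOX, with a log2FC of −0.029 ± 0.048 (adjusted p = 0.598). The OMO+DOX libraries of both lay inside the OMO range.

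LARS2, for leucine, read 41.5, 43.7, 44.2 and 45.8 CPM in OMO and 47.6, 44.0, 47.4 and 47.1 CPM in OMO+DOX (log2FC 0.089 ± 0.047, adjusted p = 0.107). YARS2, for tyrosine, read 16.8, 16.9, 19.5 and 17.3 CPM in OMO and 17.7, 19.9, 19.9 and 19.9 CPM in OMO+DOX (log2FC 0.13 ± 0.064, adjusted p = 0.0758). PARS2, for proline, read 7.88, 7.62, 8.13 and 8.61 CPM in OMO and 9.66, 7.70, 9.29 and 9.82 CPM in OMO+DOX (log2FC 0.18 ± 0.085, adjusted p = 0.0716). In each of the 3 a single library made the groups overlap, replicate 2 of OMO+DOX for LARS2 and PARS2 and replicate 3 of OMO for YARS2. Left without that library they were called higher, with adjusted p of 0.0439 for LARS2, 0.00730 for PARS2 and 0.00937 for YARS2. YARS2 was also called without replicate 1 of OMO+DOX (adjusted p = 0.0336), and without replicate 2 of OMO+DOX the mitochondrial genes called higher were 4 rather than 2.

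The scaffold proteins of the multisynthetase complex did not move as one. EEF1E1, also known as AIMP3, read 36.7, 35.1, 38.6 and 34.4 CPM in OMO and 23.4, 26.1, 24.5 and 23.4 CPM in OMO+DOX. Its groups lay apart (log2FC −0.57 ± 0.055, adjusted p = 1.60e-06), and 393 of its exonic bases are shared on the same strand with the read-through gene EEF1E1-BLOC1S5. AIMP1 read 82.3, 81.5, 72.6 and 80.8 CPM in OMO and 63.7, 69.1, 62.9 and 59.4 CPM in OMO+DOX, again with no overlap (log2FC −0.31 ± 0.0585, adjusted p = 4.11e-04). AIMP2 rose, from 13.1, 13.1, 15.4 and 13.7 CPM in OMO to 14.8, 17.2, 15.8 and 17.4 CPM in OMO+DOX. Replicate 3 of OMO reached into the OMO+DOX range (log2FC 0.24 ± 0.073, adjusted p = 0.0113), and 532 exonic bases of AIMP2 lie opposite exons of EIF2AK1.

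Cytosolic and mitochondrial enzymes were then compared within each library. Summed over the class, the 20 cytosolic genes gave 5332, 5336, 5511 and 5398 CPM in OMO and 4170, 4503, 4217 and 4384 CPM in OMO+DOX. The 17 mitochondrial genes gave 728, 757, 759 and 740 CPM in OMO and 641, 626, 646 and 646 CPM in OMO+DOX. Both sums were lower in all OMO+DOX libraries than in all OMO libraries. The ratio of the sums was between 7.05 and 7.33 in OMO and between 6.50 and 7.20 in OMO+DOX, ranges that overlapped through replicate 2 of OMO+DOX.

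Other summaries of the same contrast did not point one way. The difference of mean log2 CPM between the classes went from between 2.60 and 2.65 in OMO to between 2.40 and 2.53 in OMO+DOX, a shift toward the mitochondrial enzymes. The difference of median log2 CPM went from between 2.51 and 2.56 to between 2.85 and 2.92, a shift toward the cytosolic enzymes. The medians of the gene-wise log2FC, −0.33 and −0.29, differed by −0.038. The summaries thus gave no single direction for the class as a whole, with the median difference resting on the middle genes. The comparison was taken to each amino acid in turn.

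For 16 pairs of genes the log2 ratio of the cytosolic to the mitochondrial enzyme of the same amino acid was formed inside each library, which removes the library's depth. The glutamate and proline pairs share EPRS1, and FARSA stood for the cytosolic phenylalanine enzyme. In 12 of the 16 pairs the ratios of the groups did not overlap, which gives p = 0.0286 by an exact two-sided permutation test, the smallest that 4 against 4 libraries allow and not adjusted over the pairs. Of all single genes tested, 71.7% did not overlap between the groups. The share for ratios of other gene pairs was not computed, so this count is not a result particular to these enzymes. In 9 of the 12 the ratio fell with DOX and in 3 it rose.

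Methionine stood out among the pairs. The log2 ratio of MARS1 to MARS2 was 4.74, 4.94, 5.03 and 4.87 in OMO and 3.07, 3.08, 3.0 and 3.19 in OMO+DOX. The cytosolic message went from 29.8 times to 8.49 times the mitochondrial one, a log2 difference of −1.81 ± 0.071 (SE), with MARS1 at a log2FC of −0.35 and MARS2 at 1.46. MARS1 shares 519 exonic bases with ARHGAP9 and 355 with DDIT3, both on the opposite strand, and 63 with MIR6758 on the same strand. The counts of MARS1 were not whole numbers in 7 of the 8 libraries.

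The ratio also fell for proline by 0.62 ± 0.13 on the log2 scale (EPRS1 −0.44, PARS2 0.18) and for phenylalanine by 0.50 ± 0.061 (FARSA −0.999, FARS2 −0.50). It fell by 0.46 ± 0.086 for tryptophan (WARS1 −1.14, WARS2 −0.69), by 0.36 ± 0.091 for threonine (TARS1 −0.43, TARS2 −0.084) and by 0.34 ± 0.062 for alanine (AARS1 −0.13, AARS2 0.21). The smallest such shifts were those of leucine, −0.31 ± 0.073 (LARS1 −0.22, LARS2 0.089), tyrosine, −0.30 ± 0.039 (YARS1 −0.16, YARS2 0.13), and arginine, −0.28 ± 0.031 (RARS1 −0.30, RARS2 −0.029). In tryptophan both enzymes fell and the cytosolic one fell further. The phenylalanine shift rests on FARSA: with FARSB as the cytosolic subunit, a setting added after the values were seen, the log2 difference was −0.020 ± 0.064 (exact permutation p = 0.800) and the groups overlapped.

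Valine was the clearest case in the other direction. The log2 ratio of VARS1 to VARS2 was 2.75, 2.76, 2.86 and 2.83 in OMO and 3.68, 3.72, 3.68 and 3.65 in OMO+DOX. The cytosolic message went from 6.96 times to 12.8 times the mitochondrial one, by a log2 difference of 0.88 ± 0.030 (VARS1 0.57, VARS2 −0.32), and 1858 exonic bases of VARS2 are shared on the same strand with GTF2H4. The ratio also rose for asparagine by 0.42 ± 0.054 (NARS1 −0.077, NARS2 −0.50) and histidine by 0.41 ± 0.027 (HARS1 0.12, HARS2 −0.29). HARS1 and HARS2 lie head to head on chromosome 5 and share 437 exonic bases on opposite strands.

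In the remaining 4 pairs the ratios overlapped. The log2 differences were −0.18 ± 0.054 for glutamate (exact permutation p = 0.0571; EPRS1 −0.44, EARS2 −0.27), −0.029 ± 0.054 for isoleucine (exact permutation p = 0.714; IARS1 −0.54, IARS2 −0.51) and 0.034 ± 0.087 for serine (exact permutation p = 0.771; SARS1 −0.44, SARS2 −0.47). For cysteine the difference was 0.12 ± 0.048 (exact permutation p = 0.0571; CARS1 −0.29, CARS2 −0.40). For isoleucine and serine the enzymes of both compartments fell.

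**Figure D4:**
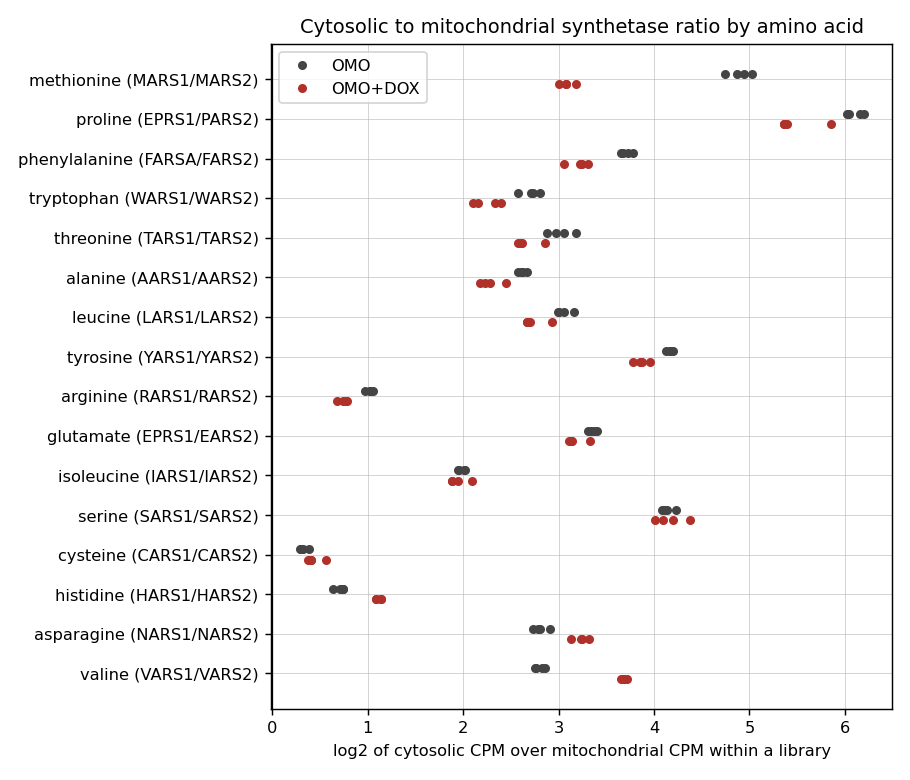
For each of 16 amino acids the log2 ratio of the cytosolic to the mitochondrial enzyme's CPM is plotted for the 4 OMO libraries and the 4 OMO+DOX libraries, ordered by the shift. The methionine points move from about 4.90 to 3.09 and the valine points from 2.80 to 3.68, while those of isoleucine and serine overlap.

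Genes that work beside the synthetases were described in the same way. Of 16 partners, such as the amidotransferase that makes mitochondrial glutaminyl-tRNA, selenocysteine enzymes and proofreading factors, 6 fell, 5 rose and 5 did not pass the test, with a median log2FC of 0.02. These shares, 37.5% lower and 31.2% higher, were near the 38.1% and 38.5% of all genes tested. The largest falls were those of DTD2, which removes wrongly charged amino acids, at −0.70, TRIT1, a tRNA-modifying enzyme, at −0.68, PSTK of the selenocysteine pathway at −0.60 and AARSD1, an alanyl-tRNA editing protein, at −0.54. The largest rises were those of QRSL1, a subunit of the amidotransferase, at 0.62, SEPSECS, which completes selenocysteyl-tRNA, at 0.53, PTRHD1 at 0.44 and MTFMT, which formylates the methionyl-tRNA made by MARS2, at 0.41. MTFMT stood at 7.39 ± 0.932 CPM in OMO and 9.82 ± 0.356 CPM in OMO+DOX (SD, n = 4; adjusted p = 0.00115).

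Of 46 genes for the processing, export and modification of tRNA, 21 fell, 12 rose and 13 did not pass, with a median log2FC of −0.11. That was 45.7% lower and 26.1% higher, beside 38.1% and 38.5% of all genes tested. POP1, a protein of RNase P, fell by 0.94 on the log2 scale, from 265 ± 9.83 to 138 ± 2.49 CPM (SD, n = 4; adjusted p = 2.48e-09). ADAT2, a subunit of the tRNA adenosine deaminase, TPRKB, a subunit of the KEOPS complex, and FTSJ1, a tRNA methyltransferase, had log2FCs of −0.86, −0.77 and −0.63. ADAT1, another tRNA deaminase, QTRT2, a subunit of the queuine transferase, TRNT1, which adds the CCA end, and TRMT6, a subunit of a tRNA methyltransferase, rose by 0.79, 0.78, 0.54 and 0.47.

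The amino acid response is the programme run by ATF4 when amino acids are short. Of 28 genes 20 fell and 4 rose, beside 38.1% lower and 38.5% higher among all genes tested, and the median log2FC was −0.36. A fall of at least 1.5-fold was called for 10 of the 28, beside 18.9% of all genes tested. DDIT4, an inhibitor of mTORC1 signalling, read 245, 223, 247 and 223 CPM in OMO and 71.8, 93.4, 79.3 and 91.4 CPM in OMO+DOX, far apart (log2FC −1.48, adjusted p = 1.34e-08). ATF5, a transcription factor of the ATF4 family, and the amino acid transporters SLC1A5 and SLC7A5 had log2FCs of −1.45, −1.24 and −1.11.

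The rises in that list were those of ATF3 at 1.37, PPP1R15A at 0.51, VLDLR at 0.35 and DDIT3 at 0.23. ATF3, a stress-induced transcription factor, stood at 33.5 ± 1.91 CPM in OMO and 86.7 ± 5.69 CPM in OMO+DOX (SD, n = 4; adjusted p = 1.73e-09). ATF4 itself had a log2FC of −0.35 (adjusted p = 2.61e-04) and ASNS, the asparagine synthetase, of −0.99 (adjusted p = 1.45e-07), both named after their values were seen. Of 10 genes known as MYC targets 7 fell (70%) and 2 rose (20%), beside 38.1% lower and 38.5% higher among all genes tested. CAD, an enzyme of pyrimidine synthesis, and NCL, the nucleolar protein nucleolin, had log2FCs of −0.48 and −0.44. The 4 largest falls in that list were those of FBL at −1.55, LDHA at −1.09, CDK4 at −0.84 and NPM1 at −0.78, and the rises those of NOP56 at 1.02 and ODC1 at 0.32, all named after their values were seen.

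**Figure D5:**
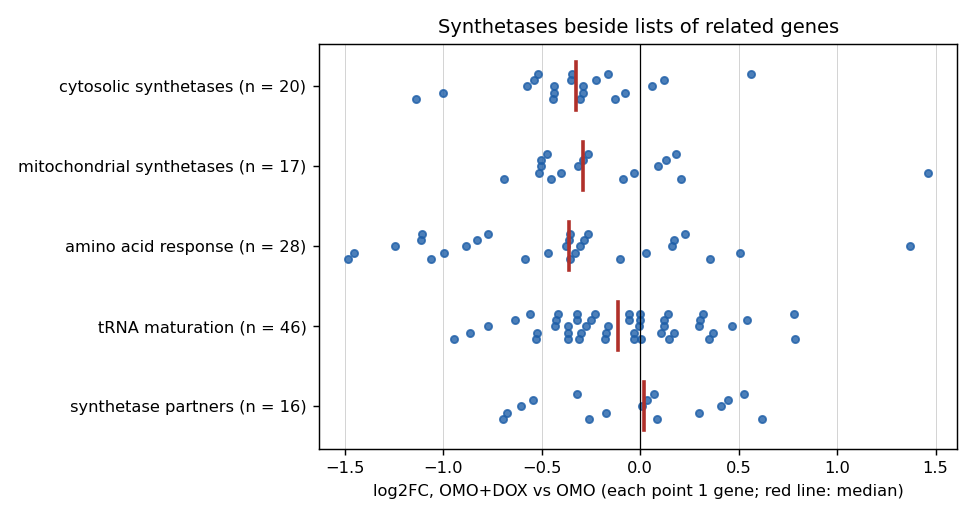
Each point is the log2FC of 1 gene, OMO+DOX against OMO, in 5 lists, and the red line is the median of the list. The medians lie at −0.33 for cytosolic and −0.29 for mitochondrial synthetases, −0.36 for the amino acid response, −0.11 for tRNA maturation and 0.02 for the partners.

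Some counts rest on gene models that overlap. Of the 40 genes, 20 have exons that overlap a gene on the opposite strand and 7 a gene on the same strand in GENCODE 29, and 21 had fractional counts, over 1e-06 from a whole number, in at least 1 library, 12 of them in all 8. For MARS2, VARS1, IARS1, EPRS1 and FARSB the counts were whole in all libraries and no overlap was found. WARS1 shares 385 exonic bases with AL157871.4 and 287 with WDR25, both on the opposite strand. Whether reads were counted by strand is not given in the sources used here.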

How the data were processed

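PolyA+ RNA of D283-OMO cells was sequenced as 4 OMO and 4 OMO+DOX libraries in 100 nucleotide pairs with a stranded kit. Trim Galore, STAR and RSEM were run by the authors, with GENCODE release 32 on GRCh38 as the annotation. They deposited 1 table of expected counts for each library, not normalized. Where reads match more than 1 gene RSEM shares them out, so the values of overlapping or similar genes depend on how it did so. Groups and replicate numbers were taken from the sample titles, and the DOX dose from the study's methods.

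The counts were rounded, and the 15222 genes over 1 CPM in 4 or more libraries were tested in R 4.3.3 with edgeR 4.0.16, using TMM normalization, a quasi-likelihood test without covariates and Benjamini-Hochberg adjustment over all genes tested. CPM are scaled by the TMM factors. The SE of a log2FC was derived from the F statistic of its test. Pair ratios were formed from CPM, with exact two-sided permutation tests over the 70 divisions of the libraries. On simulated data for this comparison with 15222 genes, 98 of 100 genes changed by a log2FC of 1 and 85 of 100 changed by 0.585 were recovered, with 18 false calls. The 100 genes changed at each size were a far smaller share of the 15222 than the 76.6% called in these libraries. Recovery and false calls at such a share were not simulated. Figures and other steps used Python 3.11.15 with pandas 2.3.3, scipy 1.17.1 and matplotlib 3.10.9.

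Coordinates and exon lengths are from GENCODE 29 on GRCh38, and promoters from RefSeq on GRCh38.p14. The lowest count of any of the 40 genes in a library was 309, for PARS2. For genes with low counts, counting error may be a large part of the spread between libraries, and its share was not worked out. Reads that carry no molecular identifiers need not be separate molecules. The genes, by a rule on their symbols, and the lists were chosen with earlier results of these data known. Values per library are given for the 5 largest falls and rises passing an adjusted p of 0.05 in each class, for all scaffold genes and for genes that did not pass; pairs are given by both log2FCs and the lists of partners, tRNA maturation and the amino acid response by their 4 largest falls and rises, with CAD and NCL for the MYC targets. The values of 2 genes and 1 pair are not reported here, although summary counts and medians of the 40 genes include them. The replicate numbers were checked for pairing: samples with the same number had correlations of their deviations of 0.157, 0.144, 0.241 and −0.176, so that the numbers were not taken as pairs. Alternatives were DESeq2 1.42.0 (its size factors and its Wald test), unscaled library sizes, the likelihood ratio test in edgeR, other filters, a replicate block and each replicate left out in turn.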

Additional observations from a re-analysis of the deposited data

Results flagged for a closer look

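In 9 of 76 groups of 4 libraries, 1 library stood apart from the other 3 of its group by Dixon's criterion, which chance alone would meet in about 3.8 of 76. In OMO these were RARS1 in replicate 3 at 68.4 CPM beside 62.1 to 63.0 CPM in the others, TARS1 in replicate 2 at 426 CPM beside 435 to 436 CPM and AIMP1 in replicate 3 at 72.6 CPM beside 80.8 to 82.3 CPM. In OMO+DOX the library apart was replicate 2 for 4 mitochondrial genes, each time the lowest. AARS2 read 46.3 CPM there beside 51.8 to 52.4 CPM, CARS2 42.8 CPM beside 46.4 to 47.1 CPM, LARS2 44.0 CPM beside 47.1 to 47.6 CPM and SARS2 21.9 CPM beside 24.7 to 25.1 CPM. Replicate 4 of OMO+DOX stood apart for IARS2 at 105 CPM beside 103 CPM in each of the others. Replicate 1 of OMO+DOX stood apart for YARS2 at 17.7 CPM beside 19.9 CPM in each of the others.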

How the results depend on the processing

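Under the alternatives run, 0 of the 40 log2FCs changed sign with a call on either side, and the 28 falls and 5 rises were the same in number with DESeq2's size factors, DESeq2's Wald test, edgeR's likelihood ratio test and the stricter filter. With library size only, the median of all genes was 0.14, and the medians of the cytosolic, mitochondrial and scaffold genes were −0.20, −0.16 and −0.19, which lay 0.34, 0.30 and 0.33 below the median of all genes, as with TMM. That setting called 5 mitochondrial genes higher, 1 cytosolic gene higher by 1.5-fold and 0 mitochondrial genes lower by 1.5-fold; AARS1, LARS1 and YARS1 were no longer called and QARS1, LARS2, PARS2 and YARS2 were called higher. Without a filter on low counts 1 cytosolic gene was called higher, since HARS1 did not pass (adjusted p = 0.224), and 1 scaffold gene fell by 1.5-fold.

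With each replicate left out in turn, cytosolic genes called lower numbered 15 to 17 and called higher 1 to 2, and those past 1.5-fold 2 to 4 lower and 0 to 1 higher. Mitochondrial genes called lower numbered 10 to 10 and called higher 2 to 4, and scaffold genes lower by 1.5-fold 0 to 1. The class medians ranged from −0.35 to −0.31, from −0.32 to −0.27 and from −0.36 to −0.28 for cytosolic, mitochondrial and scaffold genes. The pair ratios kept their direction except that of serine, whose difference ranged from −0.036 to 0.089, and no p under 0.0571 is possible for 3 against 4 libraries.

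A fit with the replicate number as a block called 28 of the 40 lower and 5 higher, and 11805 rather than 11661 of all genes. A library correlated best with its own number in 2 of 8 cases. Correlations of the same number were 0.157, 0.144, 0.241 and −0.176, beside a mean of −0.033 for other pairs. The deviations were taken from the group means, so the mean for other pairs largely follows from the same-number values and is no separate baseline. With 4 libraries in a group this check cannot settle whether the numbers pair the samples. The lowest count was 309, for PARS2. For genes with low counts, counting error may be a large part of the spread between 4 libraries, and that spread limits the values.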
